A study of Mus musculus with 15 samples.

Results

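In a set of 42 genes, 1 probe a gene gave a signal on every array of the mouse mammary carcinoma line 4TO7 and on no array of its sister line 4T1. The genes were chosen by detection: a gene entered the set when a probe had a detection p-value under 0.01 on all 6 arrays of 4TO7 and above 0.05 on all 9 arrays of 4T1. The detection p-value compares a probe's intensity with that of the array's negative controls. Of 53 probes that met these limits 1 had no gene symbol, and the other probes named 45 symbols, of which the brightest probe was used. Espn, Sgk3 and Car9 were left out because another of their probes was detected on 3 or more 4T1 arrays, and 0 symbols were left out for beginning with Slc. The 42 genes are 0.653% of the 6430 symbols with a probe detected on all 6 4TO7 arrays, out of 16593 symbols on the array. The same rule turned around gave 63 genes detected in 4T1 only. Since detection in both lines chose the genes, every difference between 4TO7 and 4T1 below is a description with no test.

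Both lines come from the same spontaneous mammary tumour of a BALB/c mouse, and 4T1 metastasises spontaneously while 4TO7 disseminates but seldom forms overt metastases. The 4T1 cells had been stably transduced with a lentiviral pLKO vector that carried a control hairpin (shscramble) or a hairpin against Tm4sf1 (shTM4SF1-1 or shTM4SF1-5). In 4TO7 the vector was retroviral, pBabepuro, either empty or with TM4SF1 (pBabepuro-TM4SF1). Each of the 5 groups held 3 arrays called biological replicates in the labels, which do not say whether cultures were grown apart or whether a line was 1 clone. Every 4T1 array came from cells with a lentiviral hairpin vector and every 4TO7 array from cells with a retroviral vector, so the line and the vector cannot be told apart. In bulk RNA, fewer cells that express a gene and less RNA per cell cannot be told apart either. Mean signal per array ran from 253 to 391 in 4TO7 and from 222 to 418.6 in 4T1, while an array detected 9436 to 10703 of its 25697 probes. The keratin genes Krt8 and Krt18, which mark simple epithelium, were detected on all arrays of both lines, whereas Krt7 was detected on all 9 4T1 arrays and on 0 4TO7 arrays. The epithelial cadherin gene Cdh1 was detected on 1 4T1 array. Of 26 epithelial markers on the array, 5 were detected on all 6 4TO7 arrays and 5 on all 9 4T1 arrays. Another 17, among them Krt19, Krt14, Krt5 and Cldn3, were detected on 0 arrays of either line.

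The name of the leading gene, endothelial cell specific molecule 1, comes from its discovery in endothelium. It encodes endocan, a secreted proteoglycan with a dermatan sulfate chain that vascular endothelium produces under VEGF and that several carcinomas also make. In growing vessels it marks the tip cells that lead a sprout.

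Esm1 (probe ILMN_1257574) lies on mouse chromosome 13, at chr13:113209659-113218104 in GRCm38.p6. Its mean bead intensity was 3024, 2599 and 2279 on the 3 pBabepuro arrays and 2197, 2086 and 1489 on the 3 pBabepuro-TM4SF1 arrays. The lowest, median and highest of the 9 4T1 arrays were 81.6, 89.4 and 124.4. All 6 4TO7 arrays stood far above all 9 4T1 arrays, and between 23 and 58 beads carried the probe on each array. After background correction and quantile normalization the values on the log2 scale were 11.22, 11.09 and 11.19 with pBabepuro and 11.05, 10.93 and 10.90 with pBabepuro-TM4SF1. With shscramble they were 4.53, 4.36 and 4.38, with shTM4SF1-1 they were 4.33, 4.46 and 4.24, and with shTM4SF1-5 they were 4.41, 4.28 and 4.56. The smallest detection p-value of Esm1 on a 4T1 array was 0.137, so its 4T1 values carry no measurable level. A fold against such values is only a lower bound. It sets the mean of the bright group against the mean, over the dim group's arrays, of the lowest signal any detected probe had on the array or the probe's own signal where that was higher. Esm1 was at least 60.8-fold higher in pBabepuro 4TO7 than in shscramble 4T1, or at least 19.6-fold without background correction.

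The 300 bases around the start of Esm1 and of other members are shown because the CpG content of these promoters is compared further on. CpG is a cytosine followed by a guanine, the pair that DNA methylation acts on in mammals, and each CpG is in capitals. The sequences are RefSeq's (GRCm38.p6), written 5′ to 3′ from 250 bases before the start to 50 after it. Esm1 holds 5 CpG, Xlr4a 8 and Plpp3 11.
Esm1 (chr13:113209409-113209708, plus strand): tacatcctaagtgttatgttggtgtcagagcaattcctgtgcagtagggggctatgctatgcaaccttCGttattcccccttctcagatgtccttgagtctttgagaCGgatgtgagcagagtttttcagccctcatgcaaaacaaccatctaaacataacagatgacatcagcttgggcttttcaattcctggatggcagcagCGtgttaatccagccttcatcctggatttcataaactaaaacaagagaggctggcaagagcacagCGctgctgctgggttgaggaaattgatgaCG
Xlr4a (chrX:73082458-73082757, minus strand): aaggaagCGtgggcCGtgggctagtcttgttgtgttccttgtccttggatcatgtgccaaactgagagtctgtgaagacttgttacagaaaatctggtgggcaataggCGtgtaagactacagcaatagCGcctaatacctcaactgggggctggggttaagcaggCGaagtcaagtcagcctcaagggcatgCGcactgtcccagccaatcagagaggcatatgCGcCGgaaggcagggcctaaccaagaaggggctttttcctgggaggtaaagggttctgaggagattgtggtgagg
Plpp3 (chr4:105157097-105157396, plus strand): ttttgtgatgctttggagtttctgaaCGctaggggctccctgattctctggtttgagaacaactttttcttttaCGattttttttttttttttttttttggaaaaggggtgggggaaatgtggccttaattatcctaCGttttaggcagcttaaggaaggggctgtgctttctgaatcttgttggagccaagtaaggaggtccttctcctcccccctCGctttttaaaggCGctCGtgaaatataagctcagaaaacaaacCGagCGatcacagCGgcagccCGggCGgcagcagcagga

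**Figure D1:**
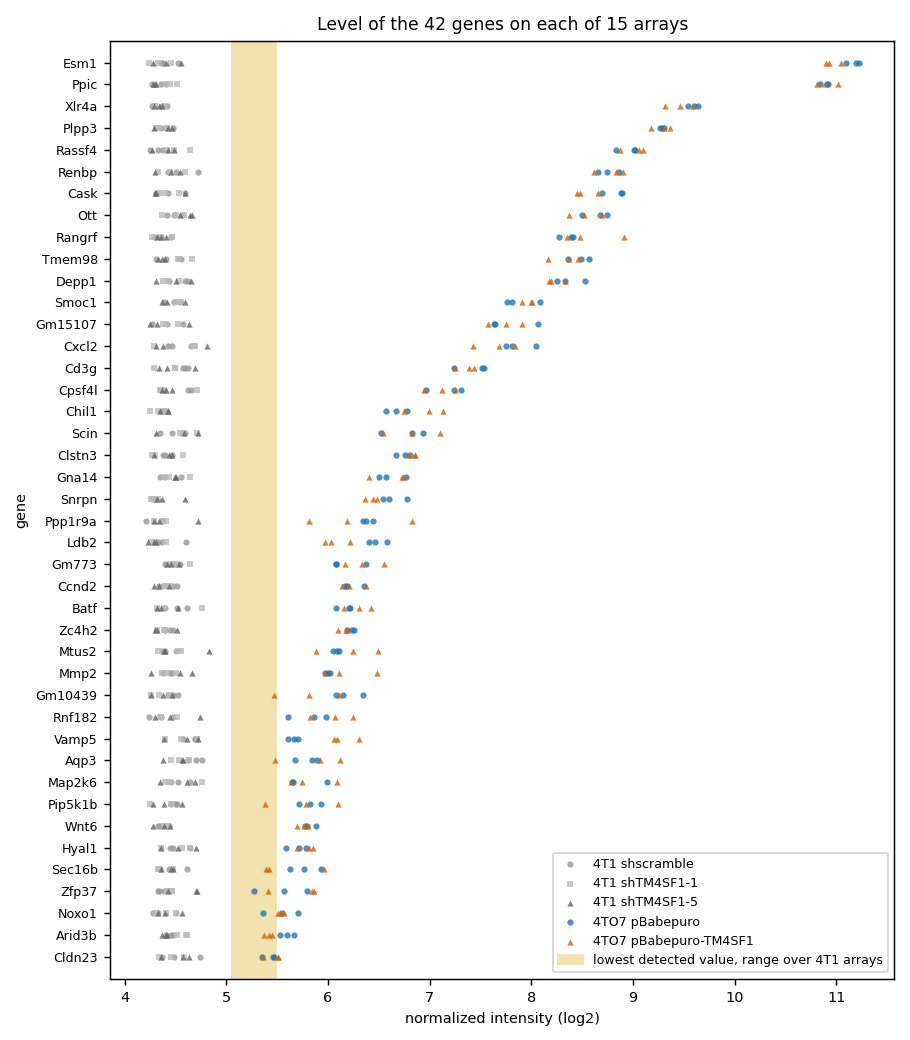
Normalized intensity (log2, horizontal axis) of each of the 42 genes (rows, brightest probe first) on each of 15 arrays, where blue circles are pBabepuro, orange triangles pBabepuro-TM4SF1 and grey marks the 3 groups of 4T1. The band gives the range, 5.05 to 5.49, of the lowest detected value on a 4T1 array, and 4T1 values of all 42 genes lie to its left, between 4.21 and 4.83.

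The 42 genes were sorted by what their products do, a sorting made after the genes were known. They fell into 7 genes of secreted and matrix proteins, 9 of membrane and lipid signalling proteins, 11 of cytoplasmic signalling, cytoskeleton and cell cycle, 4 of enzymes and of RNA or protein handling, and 11 of nuclear proteins and X-linked gene copies. Over all 42 the lower bound of the fold had a median of 2.48 and ran from 1.14 to 60.8. It was 2 or more for 23 genes and 10 or more for 8 genes. Without background correction 15 genes reached 2 and only Esm1 and Ppic (16.3) reached 10. Signals of different probes do not measure transcript amounts on 1 scale, so the genes are not ranked by level. The plot of levels by array shows the gap between the lines shrink from 6.34 log2 units for Esm1 to 0.56 for Zfp37, measured from the lowest 4TO7 array to the highest 4T1 array.

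Among the secreted proteins, Smoc1 encodes a calcium-binding protein of basement membranes related to SPARC. Its log2 values were 7.81, 8.09 and 7.76 with pBabepuro and 7.90, 7.99 and 8.01 with pBabepuro-TM4SF1, against 4.37 to 4.59 in 4T1, at least 6.25-fold higher in pBabepuro than in shscramble. The 2 groups of 4TO7 overlapped. Cxcl2, a chemokine that draws neutrophils, had 7.81, 7.75 and 8.04 with pBabepuro and 7.43, 7.68 and 7.84 with pBabepuro-TM4SF1, against at most 4.82 in 4T1, at least 6.18-fold higher. Its array values in the 2 groups also overlapped. Chil1 encodes a secreted chitinase-like lectin without enzyme activity, and its values were 6.78, 6.67 and 6.57 with pBabepuro and 6.75, 6.99 and 7.13 with pBabepuro-TM4SF1, at least 2.70-fold higher. The remaining 3 were close to the detection limit. They were the gelatinase gene Mmp2 (at least 1.69-fold), the ligand gene Wnt6 (at least 1.49-fold) and the hyaluronidase gene Hyal1 (at least 1.37-fold).

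Plpp3 encodes a membrane phosphatase that removes the phosphate from lysophosphatidic acid and sphingosine 1-phosphate outside the cell. Its log2 values were 9.29, 9.27 and 9.31 with pBabepuro and 9.18, 9.36 and 9.31 with pBabepuro-TM4SF1, and 4.29 to 4.47 in 4T1. The 6 values of 4TO7 differed by little (SD 0.0621, n = 6) and the bound was 16.5-fold. A second Plpp3 probe was detected on 1 4TO7 array and on 0 4T1 arrays. Tmem98, a single-pass membrane protein gene, was supported by both of its probes, with 8.49, 8.57 and 8.36 against 8.17, 8.37 and 8.46 at the brighter one and a bound of 9.39-fold. Cd3g encodes the gamma chain of the CD3 complex, which carries the T cell receptor's signal. Its values of 7.24, 7.54 and 7.51 with pBabepuro and 7.44, 7.39 and 7.25 with pBabepuro-TM4SF1 gave a bound of 4.56-fold. Cd3e, another CD3 gene, was detected on 0 arrays of either line. Clstn3, a calsyntenin of synaptic membranes (at least 2.83-fold), and Gna14, a G protein alpha subunit of the Gq class (at least 2.59-fold), followed. The bounds of the other 4 were small: the lipid kinase gene Pip5k1b (1.497), the water and glycerol channel gene Aqp3 (1.48), the vesicle SNARE gene Vamp5 (1.34) and the tight junction gene Cldn23 (1.14).

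Among the cytoplasmic proteins, Rassf4 encodes a Ras-association domain protein and Depp1 a protein induced by FOXO factors that takes part in autophagy. These genes share a locus on chromosome 6. Depp1 (chr6:116650684-116652847) lies inside the span of Rassf4 (chr6:116633008-116673836) on the opposite strand. Rassf4 had log2 values of 9.01, 9.02 and 8.84 with pBabepuro and 9.10, 8.87 and 9.06 with pBabepuro-TM4SF1, at least 13.1-fold higher than in 4T1 shscramble. Depp1 had 8.33, 8.26 and 8.52 with pBabepuro and 8.18, 8.20 and 8.33 with pBabepuro-TM4SF1, at least 8.75-fold higher. Both genes were thus detected in 4TO7 only, each with overlapping groups, and whether either probe reads the other strand's transcript was not tested. All 3 other probes of Rassf4 were detected (p under 0.01) on all 6 4TO7 arrays and on 0 4T1 arrays. Only 1 of them also met the rule's 4T1 limit of p above 0.05.

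Cask, an X-linked gene for a membrane-associated scaffold kinase of cell junctions and synapses, had 8.90, 8.69 and 8.89 with pBabepuro and 8.45, 8.48 and 8.65 with pBabepuro-TM4SF1. Those groups did not overlap, and the bound against 4T1 was 11.99-fold. Rangrf, whose product releases GTP from the nuclear transport protein Ran, had 8.41, 8.39 and 8.27 against 8.48, 8.35 and 8.91, with pBabepuro-TM4SF1 replicate 3 the highest and a bound of 8.66-fold. Scin, which encodes an actin-severing protein of the gelsolin family, gave at least 2.86-fold and Ppp1r9a, which encodes the actin-binding protein neurabin, at least 2.21-fold. Ppp1r9a had the widest spread of the 42 genes over the 6 4TO7 arrays (SD 0.330), from 5.81 to 6.82, both of them pBabepuro-TM4SF1 arrays. Cyclin D2 (Ccnd2), which binds and activates the kinases of G1 phase, read 6.19, 6.36 and 6.17 with pBabepuro and 6.14, 6.38 and 6.21 with pBabepuro-TM4SF1, at least 1.99-fold higher. The genes for cyclins D1 and D3 were detected on all arrays of both lines. The microtubule protein gene Mtus2 (1.79), the endoplasmic reticulum exit site gene Sec16b (1.45), the p38 kinase activator gene Map2k6 (1.44) and the NADPH oxidase organizer gene Noxo1 (1.23) had smaller bounds. All 5 of the other Map2k genes on the array were detected on every array of both lines.

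Ppic encodes cyclophilin C, an enzyme that turns prolyl bonds during protein folding in the secretory pathway. Its intensity was 2490, 2208 and 1917 with pBabepuro and 1849, 2213 and 1485 with pBabepuro-TM4SF1, against 81.7 to 123.9 in 4T1. On the log2 scale these were 10.91, 10.84 and 10.92 against 10.81, 11.02 and 10.89, and at most 4.51 in 4T1. The 2 groups of 4TO7 overlapped, and the bound was 50.2-fold. A second Ppic probe also met both limits of the rule. Of 4 other genes on the array with names from Ppia to Ppih, Ppid, Ppie and Ppif were detected on all arrays of both lines and Ppih on 0 arrays. Cyclophilin genes with other names were not looked at. Renbp, an X-linked gene for an enzyme that interconverts N-acetylglucosamine and N-acetylmannosamine, read 8.65, 8.74 and 8.86 with pBabepuro and 8.83, 8.62 and 8.91 with pBabepuro-TM4SF1, at least 11.4-fold higher. Cpsf4l, named for its likeness to an mRNA cleavage factor gene (at least 3.81-fold), and the ubiquitin ligase gene Rnf182 (at least 1.49-fold) completed the enzymes and RNA or protein handling genes.

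The nuclear genes were led by Xlr4a, a member of the X-linked lymphocyte-regulated family. It read 9.55, 9.64 and 9.60 with pBabepuro and 9.59, 9.46 and 9.32 with pBabepuro-TM4SF1, against 4.27 to 4.41 in 4T1, with a bound of 20.4-fold. The 5 other genes of the Xlr3, Xlr4 and Xlr5 families on the array (Xlr3c, Xlr4b, Xlr4c, Xlr5a and Xlr5c) were detected on 0 arrays. Probes of near-identical family members can nevertheless cross-react. Snrpn, an imprinted gene whose product is a small nuclear ribonucleoprotein, read 6.60, 6.78 and 6.54 with pBabepuro and 6.45, 6.48 and 6.37 with pBabepuro-TM4SF1, a separation of the groups, and was at least 2.63-fold higher. Its other probe was detected on 0 arrays. Ldb2, which encodes a cofactor of LIM-domain transcription factors, gave at least 2.36-fold, with a second probe that also met the rule. Zc4h2, a zinc-finger gene of the X chromosome (1.98), the AP-1 family gene Batf (1.90), the DNA-binding protein gene Arid3b (1.28) and the zinc-finger gene Zfp37 (1.24) had lower bounds. Gm773, an X-linked gene of no named function, had a bound of 1.91-fold.

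Ott, Gm15107 and Gm10439 are neighbouring copies of an X-linked multicopy family. Ott read 8.75, 8.50 and 8.68 with pBabepuro and 8.69, 8.52 and 8.37 with pBabepuro-TM4SF1 (bound 10.6-fold). Gm15107 read 8.06, 7.63 and 7.64 against 7.90, 7.58 and 7.75 (bound 5.80-fold), and Gm10439 read 6.35, 6.08 and 6.15 against 6.11, 5.82 and 5.47 (bound 1.93-fold). In each of the 3 genes pBabepuro replicate 1 was the highest array. The promoters of the 3 are shown to make their likeness visible, with CpG in capitals.
Ott (chrX:149097702-149098001, plus strand): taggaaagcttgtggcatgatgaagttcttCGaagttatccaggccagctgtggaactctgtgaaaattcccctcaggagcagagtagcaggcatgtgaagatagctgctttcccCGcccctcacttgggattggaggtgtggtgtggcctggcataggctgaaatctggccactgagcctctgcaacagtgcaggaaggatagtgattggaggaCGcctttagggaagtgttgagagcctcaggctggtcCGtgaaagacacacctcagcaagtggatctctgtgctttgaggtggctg
Gm15107 (chrX:148180474-148180773, plus strand): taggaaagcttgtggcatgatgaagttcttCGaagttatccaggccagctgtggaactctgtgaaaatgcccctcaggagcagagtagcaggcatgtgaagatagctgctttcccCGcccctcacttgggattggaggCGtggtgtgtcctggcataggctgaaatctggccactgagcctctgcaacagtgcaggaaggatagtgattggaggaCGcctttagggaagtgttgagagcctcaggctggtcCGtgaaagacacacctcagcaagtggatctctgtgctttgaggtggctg
Gm10439 (chrX:149594351-149594650, plus strand): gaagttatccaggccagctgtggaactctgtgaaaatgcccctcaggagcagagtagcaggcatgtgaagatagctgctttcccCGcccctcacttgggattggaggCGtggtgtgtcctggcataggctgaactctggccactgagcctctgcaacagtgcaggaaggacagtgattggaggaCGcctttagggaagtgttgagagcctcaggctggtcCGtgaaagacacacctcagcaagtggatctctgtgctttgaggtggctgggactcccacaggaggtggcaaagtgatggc
The Ott and Gm15107 promoters were identical at 297 of 300 bases. Counted from 1 at the 5′ end, with Ott's base first, the differences were T69G, T139C and G148T. The Gm10439 window starts at base 32 of the Ott window, and 264 of the 269 bases they share were identical (98.1%). Gm10439 and Gm15107 were identical at 267 of 269 shared bases (99.3%). Which copy each probe reads was not tested, so the 3 genes are also counted as 1 below.

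With each symbol counted, members were found on chromosome X more often than on any autosome. There were 8 X-linked genes of 42 (19.05%), namely Xlr4a, Renbp, Cask, Ott, Gm15107, Gm10439, Gm773 and Zc4h2. Chromosome X held 177 of the 6430 symbols detected on all 6 4TO7 arrays (2.75%), and 3 of the 63 genes detected in 4T1 only (4.76%). With Ott, Gm15107 and Gm10439 counted as 1 gene, 6 X-linked genes remained, as many as on chromosome 6 with Rassf4 and Depp1 counted apart. Chromosome 6, however, held more of the symbols detected on all 6 4TO7 arrays (326 against 177 on the X). The chromosome took no part in the rule but was looked at after the genes were known, so the shares are given without a test. Chromosome 6 held 6 of the 42 (14.3%, against 5.07% of the symbols detected in 4TO7), which were Rassf4, Depp1, Clstn3, Ppp1r9a, Vamp5 and Ccnd2. Apart from the Rassf4 and Depp1 locus, the nearest neighbours were on the X. Ott ended 456449 bases before Gm10439 with 8 annotated genes between them, of which 0 were on the array. Xlr4a and Renbp lay 839594 bases apart. Of 25 measured genes between them, 5 were detected on all 6 4TO7 arrays and 6 on all 9 4T1 arrays, so the stretch as a whole was not without signal in 4T1.

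**Figure D2:**
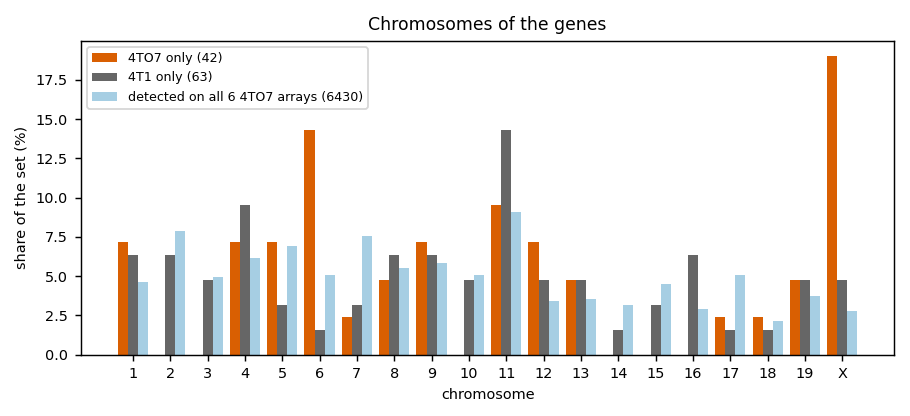
Share of each gene set (%, vertical axis, from 0) on each chromosome (horizontal axis), for the 42 genes detected in 4TO7 only (orange), the 63 detected in 4T1 only (grey) and the 6430 symbols detected on all 6 4TO7 arrays (blue). On chromosome X the shares are 19.05%, 4.76% and 2.75%.

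RefSeq's table held a promoter for 34 of the 42 genes, and where a gene had several, the one nearest the outer end of the gene was used. It held none for Ppic, Cask, Smoc1, Ldb2, Ccnd2, Mmp2, Pip5k1b and Cldn23, so their CpG content is not known here. Promoters of vertebrate genes that most cells transcribe usually hold CpG islands, stretches where CpG is as frequent as the content of C and G predicts. The ratio of observed to predicted CpG was above 0.6, a customary limit for islands, in 12 of the 34 (35.3%). Among genes with a probe detected on all 6 4TO7 arrays it was above 0.6 in 4243 of 5350 (79.3%), among genes detected in 4T1 only in 22 of 44 (50%), and among all 27025 promoters of the table in 36.5%. The median ratio was 0.40 for the 34, against 0.80 for the genes detected in 4TO7. Among these 34 the share of CpG-poor promoters was thus near that of the whole table and not near that of detected genes. The members without a promoter could move it. Probes detected on all 6 4TO7 arrays had a median log2 level of 7.91 in 4TO7, against 6.43 for the 42 genes. The sets were not matched on level, and the part of level in the difference was not tested. None of the 7 X-linked promoters, which leave out Cask, passed 0.6, and of the other 27 promoters 12 did (44.4%). Among the genes described above, Noxo1 (46 CpG), Wnt6 (31), Mtus2 (28) and Zfp37 (27) had CpG-rich promoters. Snrpn (2), Chil1 (3), Cd3g (4) and Depp1 (4) had few CpG in the window used. The window of Snrpn (chr7:60450128-60450427) lies at the outer end of a long span (chr7:59982495-60450177). Promoters inside that span were not looked at. The share of CpG-poor promoters was noticed in these data, and it was not tested.

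**Figure D3:**
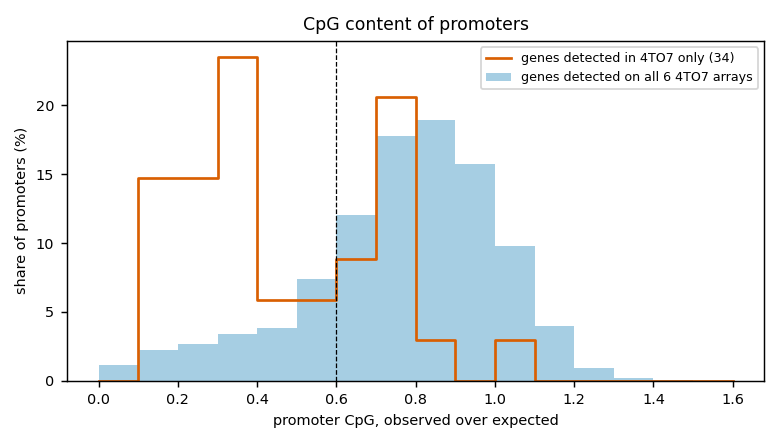
Share of promoters (%, vertical axis, from 0) by the ratio of observed to predicted CpG (horizontal axis, bins of 0.1), for 34 of the genes detected in 4TO7 only (orange line) and for 5350 genes detected on all 6 4TO7 arrays (blue bars). Of the 34 promoters, 12 lie to the right of the dashed line at 0.6.

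Short motifs were searched on both strands of the same 300 bases. The TATA sequence TATAAA was in 1 of 34 promoters (Aqp3), against 6.75% of the promoters of genes detected in 4TO7 and 14.2% of all promoters. The AP-1 motif TGANTCA was in 1 (Map2k6), against 4.84% and 7.92%. The E-box CACGTG was in 1 (Tmem98), against 10.7% and 7.24%. The GC box GGGCGG was in 22 of 34 (64.7%), against 68.1% and 35.9%. Each motif was counted on its own, whether or not it overlapped another. A match says only that the letters are in the window.

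The difference between pBabepuro-TM4SF1 and pBabepuro in 4TO7 was not used by the rule, but detection on every array of both groups was. A gene without signal in either group could not enter the set, which limits the changes that could be seen here. The gene introduced belongs to the L6 family of membrane proteins. Its mouse probe (ILMN_2462650) averaged 8.27 with pBabepuro (SD 0.413, n = 3) and 8.41 with pBabepuro-TM4SF1 (SD 0.118, n = 3). The change in Tm4sf1 was 0.14 on the log2 scale and did not pass the threshold in limma (SE 0.194, adjusted p = 0.933). Whether this probe reads the introduced transcript was not tested, so directions below rest on the labels. At the probes of the rule all 42 genes passed the filter on low values, since the rule already asked for detection on 6 arrays. The probe that the fit used for Noxo1 did not meet the rule. It passed the filter with detection on 3 4TO7 arrays and 1 4T1 array, so its change is not independent of that filter. Of the 42, limma called 0 at an adjusted p of 0.05, where over all 8228 genes tested 2 were called (0.0243%), Aldh3a1 and Slco4a1. At an unadjusted p under 0.05 there were 3 of the 42 (7.14%), against 7.22% of all genes. The smallest adjusted p of a member was 0.534, that of Noxo1, which the fit tested at a probe other than that of the rule. At the probes of the rule 2 of the 42 (4.76%) had an unadjusted p under 0.05 (Vamp5 and Ldb2). There limma again called 0, with a smallest adjusted p of 0.619. With pBabepuro-TM4SF1, 20 of the 42 had a higher mean and 22 a lower one, and the median log2 change was -0.020, against -0.0013 over all genes. For 7 genes (16.7%) every array of one group lay above every array of the other, against 12.7% of all genes. Of these 7, Noxo1 separated at its other probe only, which leaves 6 (14.3%) at the probes of the rule (Esm1, Cask, Snrpn, Ldb2, Vamp5 and Arid3b). Over all genes the median SE of a log2 change was 0.130. On simulated data for this comparison with 8228 genes, 56 of 100 genes changed by 0.5 and 89 of 100 changed by 1 on the log2 scale were called. Those genes were drawn from all genes and changed together, which loosens the adjusted threshold. Most members had an SE above the median, such as Vamp5 (0.182) and Ldb2 (0.178), while Esm1 (0.126) and Ppic (0.121) lay below it. The simulated shares therefore do not say how often a change among the 42 would be called.

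Esm1 was lower on all 3 pBabepuro-TM4SF1 arrays than on all 3 pBabepuro arrays. Its log2 change was -0.21 (SE 0.126, adjusted p = 0.752, limma), which did not pass the threshold. The log2 values of Esm1 correlated at r = 0.667 with the mean signal of the array (n = 6 arrays), and the part of array brightness in the difference was not tested. The largest lower means at the probe of the rule were in Ldb2 (-0.41, SE 0.178), Gm10439 (-0.39, SE 0.193), Cask (-0.30, SE 0.154) and Cxcl2 (-0.22, SE 0.181). Those 4 had adjusted p between 0.630 and 0.844 in limma. The largest higher means were in Vamp5 (0.49, SE 0.182), Chil1 (0.28, SE 0.171), Rnf182 (0.23, SE 0.195) and Rangrf (0.23, SE 0.162), with adjusted p between 0.544 and 0.855 in limma. Single arrays weighed on several of these values. Without pBabepuro-TM4SF1 replicate 3 the change was 0.061 for Rangrf, 0.13 for Rnf182 and -0.23 for Gm10439. Without pBabepuro replicate 3 it was 0.12 for Rnf182 and -0.13 for Cxcl2, without pBabepuro-TM4SF1 replicate 1 it was -0.11 for Cxcl2, and without pBabepuro-TM4SF1 replicate 2 it was 0.34 for Rangrf. Vamp5 read 5.71, 5.67 and 5.61 with pBabepuro and 6.31, 6.09 and 6.06 with pBabepuro-TM4SF1, so the 2 groups did not overlap. Ldb2 read 6.47, 6.58 and 6.40 with pBabepuro and 5.97, 6.22 and 6.03 with pBabepuro-TM4SF1, also without overlap. A second probe of Ldb2 had a mean difference of -0.21.

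For 3 genes the fit used another probe, which was brighter over all 15 arrays. Noxo1 had a log2 change of -0.61 (SE 0.214, adjusted p = 0.534, limma) at such a probe, which was detected on 3 4TO7 arrays, and of -0.0026 at the probe of the rule. Rassf4 gave -0.16 and 0.058, and Gm773 gave 0.21 and 0.18. The value of Gm773 at the other probe was 0.086 without pBabepuro-TM4SF1 replicate 3 and 0.39 without replicate 2 of that group. The probes of Noxo1 disagreed in size and those of Rassf4 in sign. The remaining probes of Rassf4 had mean differences of -0.39 and -0.029, so only the probe of the rule was higher with pBabepuro-TM4SF1.

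**Figure D4:**
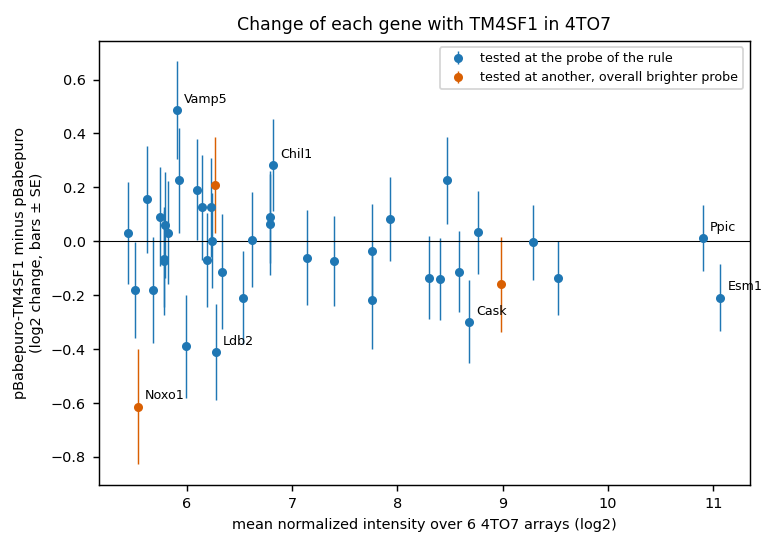
Log2 change with pBabepuro-TM4SF1 against pBabepuro (vertical axis, points with bars of ± SE, n = 3 against 3) by mean log2 intensity over the 6 4TO7 arrays (horizontal axis) for the 42 genes. Changes run from -0.61 (Noxo1, orange, tested at another probe) to 0.49 (Vamp5), and 0 of 42 passed an adjusted p of 0.05 in limma.

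The genes of the set whose values followed Esm1 most closely over the 6 4TO7 arrays were Gm10439 (r = 0.920), Ott (r = 0.816), Cask (r = 0.751), Xlr4a (r = 0.746) and Arid3b (r = 0.737). In the opposite direction Clstn3 (r = -0.921) and Chil1 (r = -0.844) stood as far from 0. The 6 arrays come from both groups, which did not overlap for Esm1, Cask and Arid3b, so these correlations in part restate the difference between the groups. The arrays also share their brightness and normalization. The log2 values of Gm10439 correlated at r = 0.818 with array brightness and those of Arid3b at r = 0.247.

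Lists of related genes placed the members among their kind. Of 21 endothelial markers on the array, Esm1 and Egfl7 were detected on all 6 4TO7 arrays, and Egfl7, Eng and Plvap on all 9 4T1 arrays. The other 17, among them Pecam1, Cdh5, Kdr, Tek, Tie1 and Vwf, were detected on 0 arrays of either line. The summed intensity of the 20 endothelial markers other than Esm1 ran from 596.7 to 692.5 in 4TO7 and from 853.5 to 1186 in 4T1. Of 11 leukocyte markers, Cd14 was detected on all arrays, Tyrobp on 1 4TO7 array and the other 9, among them Ptprc and Cd3e, on 0 arrays. Their summed intensity ran from 1055 to 1314 in 4TO7 and from 632 to 819 in 4T1. Cd14 averaged 9.81 on the log2 scale in 4TO7 and 8.94 in 4T1. Of 26 mesenchymal genes 8 were detected on all 6 4TO7 arrays, 9 on all 9 4T1 arrays and 13 on 0 arrays. Vim, Zeb2, Snai1, S100a4, Pdgfra and Sparc were detected on all arrays of both lines. From this list Mmp2 was a member, while Twist1, Foxc2 and Acta2 were among the 63 genes detected in 4T1 only. Of 40 WNT genes Wnt6 was a member, with Wnt10a and Wnt10b detected on all 6 4TO7 arrays and on 5 of 9 4T1 arrays and Wnt7b on all arrays. Of 39 chemokine and cytokine genes Cxcl2 was a member. Among other genes with the Cxcl name, Cxcl1, Cxcl5 and Cxcl16 were detected on all arrays of both lines, and Cxcl3 on 0 arrays. Esm1 was also the member among 27 angiogenic and 26 proteoglycan genes, Snrpn among 19 imprinted genes, Xlr4a among 22 cancer-testis genes and Mmp2 among 35 proteases and inhibitors. The other 12 lists, with 46 extracellular matrix genes and 31 of TGF-beta and BMP signalling among them, held 0 members. In the pBabepuro-TM4SF1 comparison limma called 0 genes of any of these lists. An unadjusted p under 0.05 was seen in 0 of 4 endothelial genes tested, 0 of 12 mesenchymal, 1 of 12 WNT and 2 of 18 chemokine and cytokine. It was also seen in 3 of 20 extracellular matrix and 2 of 17 angiogenic genes. Over all genes the share was 7.22%, and no list was tested against it. The first 4 of these lists had medians of 0.055, -0.070, -0.081 and 0.043 on the log2 scale, against -0.0013 over all genes.

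The limits of the rule divided genes that differed little. Just inside, the largest detection p-values on a 4TO7 array were those of Zfp37 and Cldn23 (0.00752 each) and of Sec16b and Pip5k1b (0.00627 each). The smallest on a 4T1 array were those of Batf and Rnf182 (0.0501 each), Scin (0.0551) and Hyal1 (0.0576). Just outside, 11 symbols met the limit in 4TO7 but missed that of 4T1 on exactly 1 array. The brightest were Tbcel (detection p-value 0.0388), Tpm2 (0.00752), Pcdh7 (0.0414) and Tmem100 (0.0426).

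Other probes bore on 14 of the 42 genes, with 18 probes in all. For 6 genes another probe also met both limits, and for 8 another probe was detected on all 6 4TO7 arrays. For 3 genes (Cpsf4l, Snrpn and Map2k6) other probes were detected on 0 4TO7 arrays, so those genes rest on 1 probe against others. Noxo1 was the gene of the set with another probe detected in 4T1, on 1 of 9 arrays.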

How the data were processed

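Biotin-labelled cRNA from total RNA of 15 samples was read on Illumina bead arrays, 3 in each of 5 groups, per the labels. For 25697 probes the authors deposited linear mean bead intensity without normalization or background subtraction. It also gave, per the file headers, the count of beads, the standard error of the bead signal and the detection p-value of each probe. GenomeStudio is named in the submitters' processing notes, and no version is stated there. A second deposited table held the authors' background-subtracted, normalized intensity, with the method unstated, and 0 columns belonged to no sample.

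Intensities were corrected with limma's normexp method (negative controls inferred from detection p-values, offset 16), normalized by quantiles and taken to log2. A gene needed 3 or more arrays with detection p under 0.01, and the brightest probe of a symbol was used, which left 8228. A group-means model of all 15 arrays was fitted with limma 3.58.1 in R 4.3.3 (trended variance, 10 residual and 16.07 prior degrees of freedom), with Benjamini-Hochberg adjustment over all genes. P-values are two-sided and measure the spread between these arrays, which may be technical. For the 42 genes this spread includes the 9 4T1 arrays, where the probes of the rule gave no signal. It can be smaller or larger there than in 4TO7. Rangrf had an SD of 0.294 with pBabepuro-TM4SF1 and 0.079 with shscramble, and Plpp3 0.0196 with pBabepuro and 0.0545 with shscramble. With only the 4TO7 arrays in the fit, limma also called 0 of the 42. With 3 arrays a group, an exact permutation test reaches p = 0.1 at the least and was not run. Precision is limited by the number of arrays.

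Symbols came from GEO's platform annotation (23978 probes with 1 symbol, 0 with several, 1719 with none) and positions and promoters from RefSeq (GRCm38.p6) by gene identifier. The set and the gene lists were chosen with earlier results of these data known. Named genes were the 25 brightest, any called with TM4SF1 (otherwise the 5 largest changes each way), list members, the 4 dimmest and those nearest the limits. The remaining members are named after their values were seen. Array replicate numbers did not pair the 4TO7 samples: deviations of same-numbered arrays correlated at 0.063, -0.062 and -0.096. The fit was tested on simulated data.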

Additional observations from a re-analysis of the deposited data

How the results depend on the processing

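The set was 42 genes as reported. It held 24 genes with 4T1 detection p-values above 0.10 and 68 with 4T1 detection p-values above 0.01, and its size otherwise lay between 42 and 60 (60 with the shscramble arrays as the only 4T1 arrays, an alternative chosen after seeing the data). Leaving out 1 array gave 42 to 45 genes. In the pBabepuro-TM4SF1 comparison limma called 0 of the 42 under each of the 18 alternatives, with a smallest adjusted p of 0.326 for a member. Over all genes it called 2, against 0 with median scaling, 0 with only the 4TO7 arrays, 0 without a variance trend, and 1 to 3 when 1 array was left out (1 without pBabepuro replicate 1 or pBabepuro-TM4SF1 replicate 1). With array weights 3 were called. With the replicate number as a block 2 genes and 0 of the 42 were called, so the block changed no call, and the numbers do not pair the samples. No alternative turned the sign of the 11 member changes followed, but several fell close to 0. Median scaling moved the median of all genes to -0.18, which left Gm773 at 0.0026, Rnf182 at 0.029, Rangrf at 0.032 and Chil1 at 0.080. With an offset of 50 the fit took the rule's probe for Noxo1, at -0.0031. The Tm4sf1 difference turned to -0.065 with median scaling and ran from -0.075 (without pBabepuro replicate 2) to 0.338 when 1 array was left out. Background handling sets the size of the folds: without correction the median lower bound was 1.46 in place of 2.48 and that of Esm1 19.6 in place of 60.8, while the authors' table gave 2.47 and 60.6. Values near background have no measurable order in 4T1.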

Other observations

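Of the symbols left out for a second probe, Espn, which encodes an actin-bundling protein of microvilli and hair cell stereocilia, had a probe detected on all arrays, with a median of 10.47 on the log2 scale in 4TO7 (range 10.41 to 10.59) and 6.41 in 4T1 (range 5.89 to 6.80). Another probe, detected on all 6 4TO7 and 0 4T1 arrays, read 7.70 to 8.24 in 4TO7. Car9, a carbonic anhydrase gene induced by hypoxia, had a probe detected on all 6 4TO7 and 5 of 9 4T1 arrays, with ranges of 7.14 to 7.92 and 4.67 to 5.83. Sgk3, a kinase gene of the phosphoinositide pathway, had probes that disagreed: 2 were detected on all 6 4TO7 and 0 4T1 arrays, while another read 7.60 to 8.12 in 4TO7 and 7.57 to 7.99 in 4T1.

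Among the genes just outside the rule, Tbcel, which encodes a tubulin-binding cofactor-like protein, read 9.05 to 9.46 in 4TO7 and 4.30 to 4.80 in 4T1. Pcdh7, a protocadherin gene, read 7.48 to 7.96 in 4TO7 and at most 4.79 in 4T1, with 2 other probes at most at 5.49 in 4TO7. Tpm2, which encodes beta-tropomyosin, read 7.80 to 8.13 in 4TO7 and was detected on 1 4T1 array.

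Counting genes with a probe detected (p under 0.01) on every array of a line and no probe detected on any array of the other, 9 X-linked genes were seen in 4TO7 and 4 in 4T1. On the autosomes the same count gave 57 genes in 4TO7 and 99 in 4T1.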
